A study of Rattus norvegicus with 4 samples.

Results

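The genes described here act in G2 phase and mitosis, the part of the cell cycle in which a cell with replicated DNA divides. They were chosen as a list of 38 gene symbols, and every probe set annotated to exactly 1 of those symbols was taken. Of the 38 genes, 34 had such a probe set, 49 probe sets in all, of 14218 genes and 31099 probe sets on the array. Nek2, Ndc80 and Tpx2 had no probe set by this rule, and the probe set of Ckap2 also carries a pseudogene's symbol, so these 4 genes have no value below. The cells were smooth muscle cells from the aorta of Sprague-Dawley rats, cultured for 3 days with serum and then held for 3 days without it. For 24 h they then received PDGF-DD at 30 ng/mL, the vehicle of PDGF-DD (0.01% BSA), IL-1b at 2.5 ng/mL, or the vehicle of IL-1b (acetic acid at 10 mM with BSA at 0.1%). Each of the 4 groups was 1 sample on 1 Affymetrix rat array, so no difference below has a replicate check, no test could be made and values stand without an error. The labels do not say whether the pairs were grown side by side.

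Entry into mitosis is driven by cyclin-dependent kinase 1 (Cdk1) bound to cyclins A and B. The mitotic kinases then build the spindle, the kinetochore joins each chromosome to it, and the spindle checkpoint holds the anaphase-promoting complex in check until all chromosomes are attached. Most of these transcripts are made late in the cycle and are low in resting cells, so they are widely used to read how many cells of a culture are dividing. In the artery wall, smooth muscle cells rest, and platelet-derived growth factors are known to bring them into the cycle. PDGF-DD signals mainly through PDGF receptor beta, and IL-1b is an inflammatory cytokine. In a bulk sample, fewer dividing cells and less of a transcript per dividing cell cannot be told apart.

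In human cells, genes of this class are known to share a promoter element called the cell cycle genes homology region (CHR), often with CCAAT boxes nearby, and the promoters were therefore read beside the array values. RefSeq promoters of build GRCr8, 250 bases before to 50 after the annotated start, were found for 32 of the 38 genes, and Ccna2, Ube2c, Pbk, Aurkb, Tpx2 and Racgap1 were not among them. The motifs searched on both strands were TTTGAA and TTCGAA for the CHR, and CCAAT. On the other strand TTTGAA reads TTCAAA and CCAAT reads ATTGG, while TTCGAA reads the same on both. The promoters of 6 members that hold a CHR motif and a CCAAT motif, those with the highest mean log2 intensity, are printed because they show the arrangement, with every match in capitals. The regions are chr20:19265043-19265342, plus strand, for Cdk1, chr8:71320535-71320834, minus strand, for Kif23, chr1:143659231-143659530, plus strand, for Prc1, chr10:84473044-84473343, minus strand, for Top2a, chr8:79981609-79981908, minus strand, for Ccnb2, chr1:199952544-199952843, minus strand, for Mki67. In Mki67, the second TTTGAA and an ATTGG share 1 base.
Cdk1: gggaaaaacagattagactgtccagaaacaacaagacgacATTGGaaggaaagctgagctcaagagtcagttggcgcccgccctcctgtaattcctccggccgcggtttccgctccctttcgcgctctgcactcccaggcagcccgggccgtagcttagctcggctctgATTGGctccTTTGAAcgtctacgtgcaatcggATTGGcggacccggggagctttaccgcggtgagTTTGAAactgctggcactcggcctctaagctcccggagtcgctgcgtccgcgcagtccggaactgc
Kif23: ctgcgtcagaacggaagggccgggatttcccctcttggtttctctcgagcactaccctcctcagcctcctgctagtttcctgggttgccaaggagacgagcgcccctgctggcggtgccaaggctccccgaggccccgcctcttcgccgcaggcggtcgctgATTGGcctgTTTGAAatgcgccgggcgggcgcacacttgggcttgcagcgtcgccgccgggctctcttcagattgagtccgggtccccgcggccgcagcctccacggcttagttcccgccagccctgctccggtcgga
Prc1: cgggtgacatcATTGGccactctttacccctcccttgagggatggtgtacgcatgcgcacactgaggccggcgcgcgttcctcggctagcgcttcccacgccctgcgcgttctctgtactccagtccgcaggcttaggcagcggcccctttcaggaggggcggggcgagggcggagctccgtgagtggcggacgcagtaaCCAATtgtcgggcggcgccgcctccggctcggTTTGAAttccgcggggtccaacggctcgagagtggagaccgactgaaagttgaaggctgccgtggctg
Top2a: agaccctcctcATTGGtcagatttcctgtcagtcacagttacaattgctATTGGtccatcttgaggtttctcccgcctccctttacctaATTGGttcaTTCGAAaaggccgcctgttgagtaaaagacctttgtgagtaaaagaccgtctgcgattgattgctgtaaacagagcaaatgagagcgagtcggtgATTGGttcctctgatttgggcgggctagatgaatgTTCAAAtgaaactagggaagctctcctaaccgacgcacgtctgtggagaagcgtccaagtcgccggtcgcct
Ccnb2: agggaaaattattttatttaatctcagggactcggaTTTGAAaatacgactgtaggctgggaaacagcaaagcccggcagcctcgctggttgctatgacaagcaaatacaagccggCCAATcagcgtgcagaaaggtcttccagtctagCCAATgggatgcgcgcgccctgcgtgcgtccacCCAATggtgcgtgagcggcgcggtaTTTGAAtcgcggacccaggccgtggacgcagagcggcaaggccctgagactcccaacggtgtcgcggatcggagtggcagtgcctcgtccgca
Mki67: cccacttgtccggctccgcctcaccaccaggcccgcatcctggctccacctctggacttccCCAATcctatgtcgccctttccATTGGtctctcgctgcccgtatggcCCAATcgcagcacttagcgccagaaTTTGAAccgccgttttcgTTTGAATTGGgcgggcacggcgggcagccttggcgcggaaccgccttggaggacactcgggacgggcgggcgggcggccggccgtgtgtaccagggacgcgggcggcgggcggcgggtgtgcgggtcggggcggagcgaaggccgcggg

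TTTGAA was present in the promoters of 22 of the 32 members (68.8%), against 13.3% of 11734 array genes with a promoter and 18.3% of all 33469 promoters of the same length. It lay on the strand of the gene in 18 of the 32. CCAAT was present in 23 of 32 (71.9%), against 38.6% of array genes and 37.5% of all promoters. Both a CHR motif and a CCAAT motif stood in 17 of 32 (53.1%), against 6.15% of array genes and 7.95% of all promoters. TTCGAA was in 2 members, Bub1b and Top2a, each of which also held TTTGAA (6.25%, against 1.99% of array genes and 1.69% of all promoters). In 21 of the 22 members with TTTGAA, the match nearest to the start site began within 100 bases of it. Cdk1 and Kif23 each held an ATTGG that was followed, 4 bases on, by TTTGAA, and in Top2a an ATTGG was followed, also 4 bases on, by TTCGAA. Among 36 promoters of S phase genes, TTTGAA stood in 4 (11.1%) and CCAAT in 21 (58.3%). Among 83 promoters of further mitotic genes outside the list, TTTGAA stood in 43 (51.8%), either CHR motif in 56 (67.5%, where members had 68.8%), and a CHR motif with CCAAT in 37 (44.6%). A match is a description of these letters and does not show a site that is used.

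**Figure D1:**
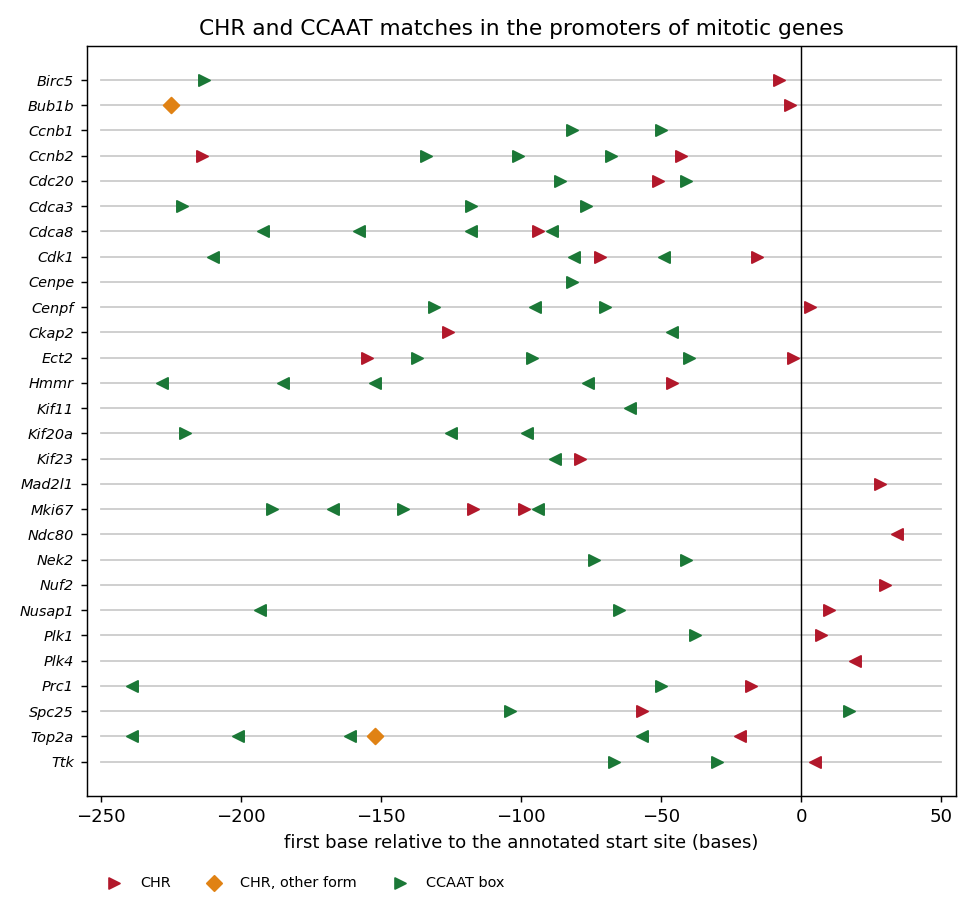
Position of each motif match (x axis, first base relative to the annotated start site, in bases) in the promoters of the 28 members that hold any, 1 line per gene. Triangles pointing right are matches on the strand of the gene and those pointing left on the other strand, and diamonds mark TTCGAA; in 21 of the 22 members with TTTGAA its nearest match lies within 100 bases of the start site.

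Values are MAS5 probe set intensities, rescaled so that the arrays share a trimmed mean. An intensity under 28.1, the 40th percentile of all values, was set to that floor before any ratio. For a gene with several probe sets, the one with the highest mean log2 intensity over the 4 arrays, after the floor, stands for it. It is called the brightest below, although another probe set can read higher on single arrays, as for Cdc20 and Ccnb1. A difference of at least 2-fold is counted as a call. All 34 members were above the floor on the PDGF-DD and PDGF-DD vehicle arrays, 32 on the IL-1b array and 33 on the IL-1b vehicle array. Their median intensity was 905 with PDGF-DD, against 446 with its vehicle, and 65.1 with IL-1b, against 76.2 with its vehicle. On the IL-1b array 5 members, and on its vehicle array 7, exceeded 4 times the floor (112), against 34 on each array of the PDGF-DD pair, so ratios between the IL-1b arrays rest on dim signals. PDGF-DD gave the highest of the 4 intensities for 34 of 34 members. For 33 of 34 both arrays of the PDGF-DD pair were above both arrays of the IL-1b pair, and Kif23 was the exception.

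**Figure D2:**
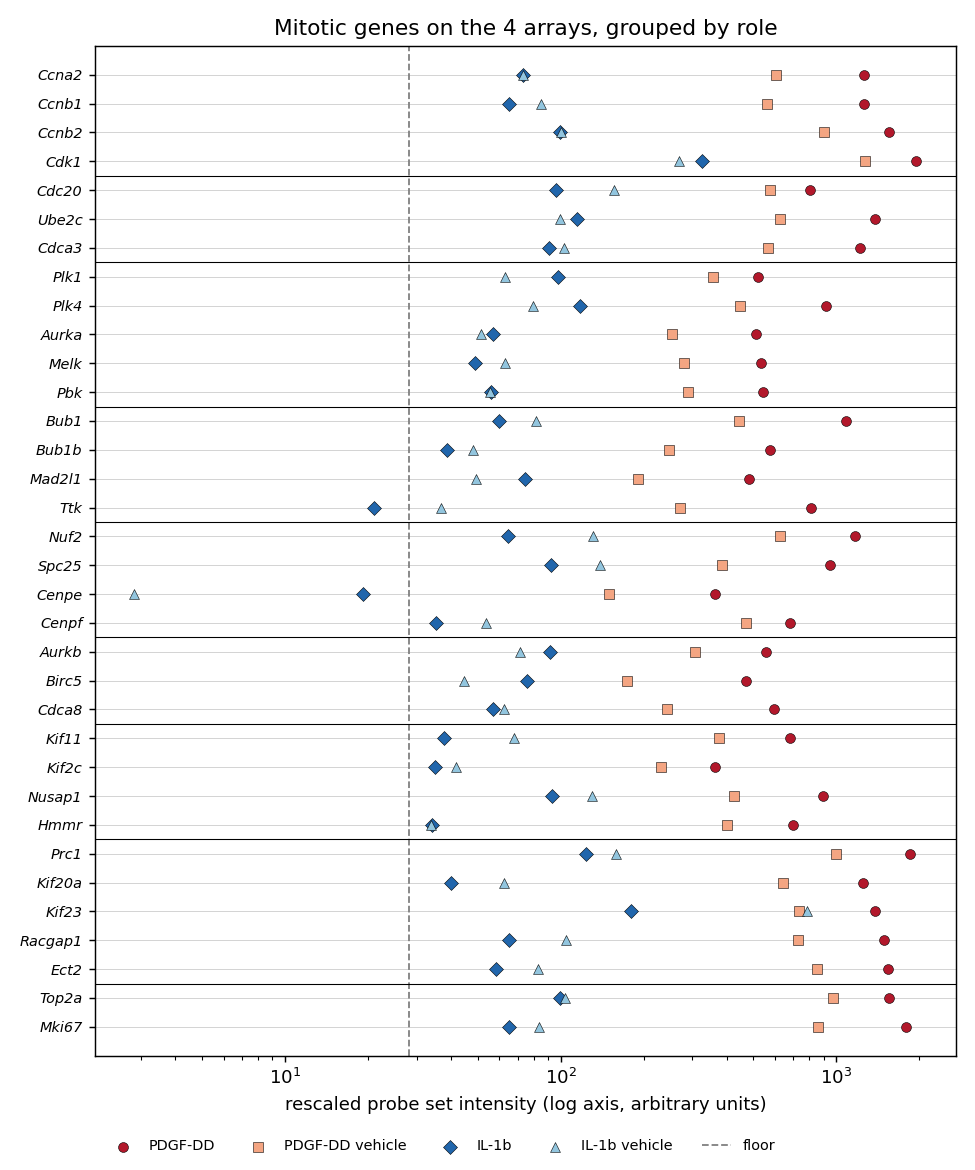
Rescaled intensity (log axis, arbitrary units) of the 34 measured members on the PDGF-DD (circles), PDGF-DD vehicle (squares), IL-1b (diamonds) and IL-1b vehicle (triangles) arrays, with roles separated by lines and the floor of 28.1 dashed. Points are single arrays and should be compared within a line; the PDGF-DD point is the highest in every line, and Kif23 is the line in which the IL-1b vehicle point lies beside the PDGF-DD vehicle point.

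With PDGF-DD, mitotic genes were higher than with its vehicle. Of 34 members, 17 were at least 2-fold higher (beside 4.24% of 10142 genes measured on these arrays). None (0) was lower by as much (4.67% of all genes, and 8.91% in either direction). Log2 ratios were above 0 in 34 of 34 members and spanned 0.48 to 1.57, with a median of 0.99, against a median of 0.01 over all genes. The quartiles of the members were 0.85 and 1.17, whereas those of all genes were -0.30 and 0.33. Because the members' median lies beside the 2-fold line, the count moves with it: 31 of 34 were at least 1.5-fold higher and 0 were 3-fold higher. The share of all genes was counted at 2-fold only, so the 1.5-fold and 3-fold counts stand without one. Aurka, Plk4, Racgap1, Ccna2, Mki67 and Nusap1 were just past 2-fold, with log2 ratios of 1.01 to 1.08. Kif20a, Melk, Kif23, Pbk and Nuf2 were just short of it, with 0.90 to 0.96.

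Between the vehicle arrays the difference was larger. With the PDGF-DD vehicle, 33 of 34 members were at least 2-fold higher than with the IL-1b vehicle, beside 5.79% of 10389 genes, and 0 were lower by that much (4.67%). The median log2 ratio was 2.46, a 5.52-fold difference, against -0.05 over all genes, and the members spanned -0.09 to 3.57. All but 1 of the members, 33 of 34, were above the floor on both vehicle arrays, so their ratios are not bounds, and Cenpe was the one that was not. Neither culture had received a factor. The vehicles differ in BSA and acetic acid, and a difference of composition cannot be told apart here from one between cultures or arrays. Of the spike-ins, which are not RNA of the cells, BioC was higher with the IL-1b vehicle and the others were slightly lower with the IL-1b vehicle. BioC read 194 and 606 on the PDGF-DD vehicle and IL-1b vehicle arrays by one probe set, and its other 3′ probe set read 264 and 654. On the PDGF-DD and IL-1b arrays, the first probe set read 181 and 590 and the other 187 and 585. BioC was thus higher on both arrays of the IL-1b pair than on both of the PDGF-DD pair. On the vehicle arrays, with the PDGF-DD vehicle first, BioB read 143 and 117, BioDn 2297 and 1925, and CreX 7775 and 7448. RNA quality can be read from the 3′ to 5′ signal ratio of beta-actin, which was 1.26 with the PDGF-DD vehicle and 1.58 with the IL-1b vehicle. That of GAPDH was 1.11 with the PDGF-DD vehicle and 1.22 with the IL-1b vehicle. Their part in the mitotic gene differences was not tested.

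With IL-1b, the members were dim on both arrays of the pair. Of 33 members measured in that pair, 0 were at least 2-fold higher (6.15% of 10679 genes) and 2 were at least 2-fold lower, Kif23 and Nuf2 (5.42% of genes), a share near the background. With the trimmed-mean scaling the median log2 ratio was -0.31, against 0.02 over all genes, with 10 members above 0 and 23 below. With the arrays scaled instead to the median level of the reference genes, the median of all genes moved by -0.36. There, 6 members were at least 2-fold lower and the members' median was -0.63, with no share over all genes counted. The median of the reference genes' own log2 ratios was 0.10, smaller in size than that shift. The beta-actin 3′ to 5′ ratio was 2.05 with IL-1b and 1.58 with its vehicle, and that of GAPDH was 1.27 with IL-1b and 1.22 with its vehicle. Their part in these values was not tested. Against the PDGF-DD vehicle array, IL-1b gave values at least 2-fold lower in 34 of 34 members (4.97% of 10522 genes, with 5.44% higher and 10.4% either way), with a median of -2.66. Against the IL-1b vehicle array, PDGF-DD gave values at least 2-fold higher in 33 of 34 (9.64% of 10389 genes), with a median of 3.54. These cross-pair values share arrays with the ones above and hold the vehicle difference as well.

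**Figure D3:**
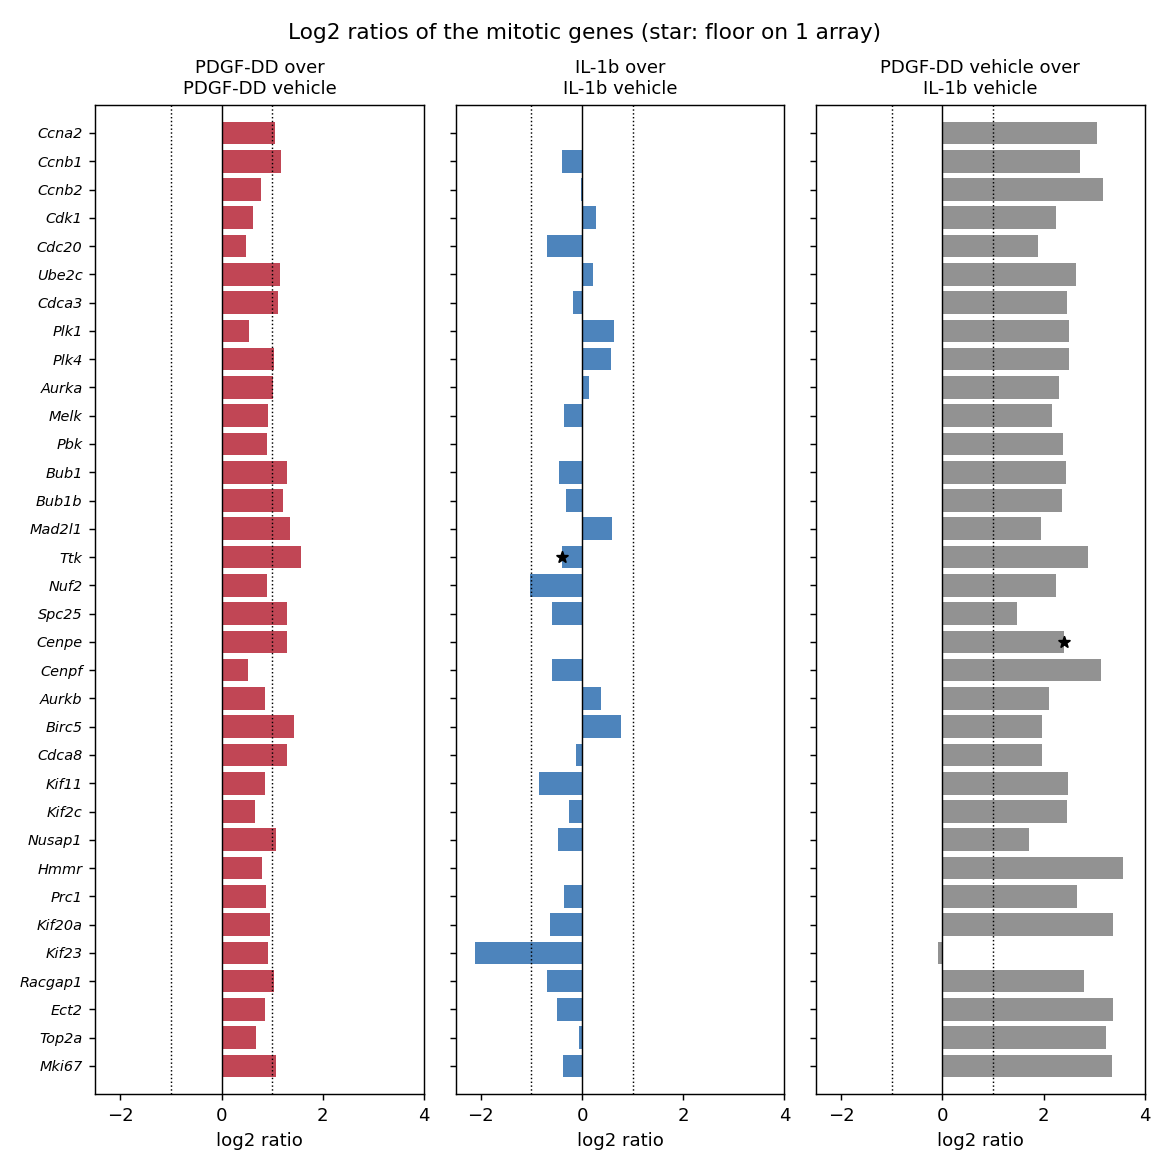
Log2 ratio (x axis) of each measured member, in the order of roles, for PDGF-DD over its vehicle, IL-1b over its vehicle and the PDGF-DD vehicle over the IL-1b vehicle, with dotted lines at 2-fold and a star where 1 array was at the floor. The left panel holds bars of similar length between 0.48 and 1.57, the middle panel short bars of both signs with Kif23 at -2.12, and the right panel bars of up to 3.57 with Kif23 at -0.09; Cenpe has no bar in the middle panel because both arrays were at the floor.

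Cyclins and Cdk1, which form the kinase that starts mitosis, were measured in 4 members. Ccna2, cyclin A2, which acts in S phase and early mitosis, read 1259 with PDGF-DD, against 605 with its vehicle, and 73.2 with IL-1b, against 73.2 with its vehicle. It was 2.08-fold higher with PDGF-DD than with its vehicle and 8.27-fold higher with the PDGF-DD vehicle than with the IL-1b vehicle. Ccnb1, the cyclin B1 partner of Cdk1, read 1267 with PDGF-DD, against 562 with its vehicle, and 65.0 with IL-1b, against 85.1 with its vehicle. Its other probe set read 1412 with PDGF-DD, against 642 with its vehicle, and 44.6 with IL-1b, against 60.5 with its vehicle. Both probe sets thus put the PDGF-DD array highest and the IL-1b array lowest. Ccnb2, the related cyclin B2, read 1549 with PDGF-DD, against 906 with its vehicle, and 99.5 with IL-1b, against 101 with its vehicle. Its log2 ratios were 0.77 for PDGF-DD and 3.17 between the vehicles. Cdk1 itself read 1955 with PDGF-DD, against 1270.4 with its vehicle, and 326 with IL-1b, against 269 with its vehicle. Its ratio for PDGF-DD over vehicle, 1.54-fold, was under 2-fold, and its ratio between the vehicles was 4.72-fold.

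The anaphase-promoting complex ends mitosis by marking cyclin B and securin for destruction. Among genes of its pathway, Cdc20 is the activator of the complex and Ube2c its ubiquitin-conjugating enzyme. Cdca3, a cell division cycle associated protein, was grouped with them. Cdc20 read 802 with PDGF-DD, against 574 with its vehicle, and 96.5 with IL-1b, against 156 with its vehicle. This was the smallest PDGF-DD ratio of the list, 0.48 on the log2 scale. Cdc20 had 5 probe sets, and another of them read 1039 with PDGF-DD, against 577 with its vehicle, and 41.8 with IL-1b, against 63.8 with its vehicle. That probe set gave a log2 ratio of 0.85 for PDGF-DD and of 3.18 between the vehicles, against 0.48 and 1.88 for the brightest. Ube2c read 1386 with PDGF-DD, against 624 with its vehicle, and 115 with IL-1b, against 99.6 with its vehicle, and was 2.22-fold higher with PDGF-DD. Cdca3 read 1220.3 with PDGF-DD, against 566 with its vehicle, and 90.9 with IL-1b, against 103 with its vehicle, and was 2.16-fold higher.

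The mitotic kinases grouped here were Plk1, Plk4, Aurka, Melk and Pbk, while Cdk1, Ttk, Bub1 and Aurkb, also kinases, are described under other roles. Plk1, a master kinase of spindle assembly and cytokinesis, read 522 with PDGF-DD, against 358 with its vehicle, and 97.7 with IL-1b, against 62.7 with its vehicle. Its PDGF-DD ratio was 1.46-fold, among the smallest of the list, while its ratio between the vehicles was 5.7-fold. Plk4, which starts centriole duplication, read 917 with PDGF-DD, against 449 with its vehicle, and 117 with IL-1b, against 79.3 with its vehicle. Aurka, the kinase that matures centrosomes, read 509.7 with PDGF-DD, against 253 with its vehicle, and 56.7 with IL-1b, against 51.3 with its vehicle. Both were just past 2-fold with PDGF-DD. The kinases Melk and Pbk were 1.9-fold and 1.87-fold higher with PDGF-DD, and 4.47-fold and 5.23-fold higher with the PDGF-DD vehicle than with the IL-1b vehicle. With IL-1b, 4 of these 5 kinases had log2 ratios above 0, from 0.02 for Pbk to 0.64 for Plk1, and 0 reached 2-fold. Of the kinases under other roles, Cdk1 (0.28) and Aurkb (0.37) were above 0. Bub1 (-0.45) and Ttk (-0.39, with the IL-1b value at the floor) were below it.

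The spindle checkpoint was the role in which every measured member, 4 of 4, was at least 2-fold higher with PDGF-DD (4.24% of all genes). Its median log2 ratio was 1.32. Ttk, the kinase that switches the checkpoint on at unattached kinetochores, read 809 with PDGF-DD, against 272 with its vehicle, and 20.9 with IL-1b, against 36.7 with its vehicle. Its PDGF-DD ratio, 2.98-fold, was the largest of the list, and its value with IL-1b lay under the floor. The second probe set of Ttk read 172 with PDGF-DD, against 63.9 with its vehicle, and was under the floor on both IL-1b arrays. Bub1, a checkpoint kinase at the kinetochore, read 1089 with PDGF-DD, against 443 with its vehicle, and 59.5 with IL-1b, against 81.4 with its vehicle. Bub1b, which encodes BubR1, part of the complex that inhibits Cdc20, read 575 with PDGF-DD, against 248 with its vehicle, and 38.6 with IL-1b, against 47.9 with its vehicle. Mad2l1, the Mad2 protein that binds Cdc20, read 482 with PDGF-DD, against 190.3 with its vehicle, and 74.3 with IL-1b, against 49.2 with its vehicle. All 3 probe sets of Mad2l1 were higher with PDGF-DD, with log2 ratios of 0.90 to 1.34, the lowest of which is under 2-fold. With IL-1b, the probe set that stands for Mad2l1 gave 0.60, and the others gave -0.03 and 0.08.

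The kinetochore genes code for proteins that tie chromosomes to spindle fibres. Nuf2 and Spc25, subunits of the Ndc80 complex that grips microtubules, differed from each other in size. Nuf2 read 1167 with PDGF-DD, against 625 with its vehicle, and 64.4 with IL-1b, against 131 with its vehicle. It was 1.87-fold higher with PDGF-DD and 2.04-fold lower with IL-1b. Spc25 read 951 with PDGF-DD, against 387 with its vehicle, and 92.5 with IL-1b, against 139 with its vehicle, with a 2.46-fold difference for PDGF-DD and a 1.51-fold lower value with IL-1b. The motor protein Cenpe, which carries chromosomes to the spindle equator, read 365 with PDGF-DD, against 149 with its vehicle. On the IL-1b and IL-1b vehicle arrays it read 19.1 and 2.84, both under the floor, so it was at least 5.32-fold higher with the PDGF-DD vehicle than with the IL-1b vehicle. Cenpf, a large protein of the outer kinetochore, read 678 with PDGF-DD, against 471 with its vehicle, and 35.3 with IL-1b, against 53.5 with its vehicle. Its PDGF-DD ratio of 1.44-fold was small for the list, and its 8.81-fold ratio between the vehicles was above the list's median.

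The chromosomal passenger complex corrects faulty attachments, with Aurkb as its kinase and Birc5 (survivin) and Cdca8 (borealin) as targeting subunits. Birc5 read 470.4 with PDGF-DD, against 175 with its vehicle, and 75.6 with IL-1b, against 44.5 with its vehicle. It was 2.69-fold higher with PDGF-DD, and at 1.7-fold had the largest ratio above 0 of any member with IL-1b, still under 2-fold. Aurkb read 555 with PDGF-DD, against 308 with its vehicle, and 91.8 with IL-1b, against 71.3 with its vehicle. Cdca8 read 597 with PDGF-DD, against 244 with its vehicle, and 57.0 with IL-1b, against 62.3 with its vehicle. These 3 genes had PDGF-DD ratios of 2.69-fold, 1.8-fold and 2.45-fold, and their ratios between the vehicles, 3.93-fold, 4.33-fold and 3.91-fold, were below the list's median of 5.52-fold.

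Spindle genes with a probe set were Kif11, a kinesin that pushes the spindle poles apart, Kif2c, a kinesin that shortens microtubules, Nusap1, which bundles spindle fibres, and Hmmr, a spindle-binding protein that is also known as a hyaluronan receptor. Hmmr read 698 with PDGF-DD, against 403 with its vehicle, and 34.1 with IL-1b, against 33.9 with its vehicle. Its ratio between the vehicles, 11.9-fold, was the largest of those that are not bounds (that of Cenpe is a lower bound) and rests on an IL-1b vehicle value just above the floor. The other probe set of Hmmr gave a log2 ratio of 2.26 between the vehicles in place of 3.57. It read 33.3 with IL-1b, against 60.3 with its vehicle, a log2 ratio of -0.86 in place of 0.01. Nusap1 read 894 with PDGF-DD, against 424 with its vehicle, and 92.8 with IL-1b, against 129.6 with its vehicle, and was 2.11-fold higher with PDGF-DD. The other probe set of Nusap1 gave a log2 ratio of 0.64 for PDGF-DD, under 2-fold, in place of 1.08. Between the vehicles it gave 2.72 in place of 1.71. Kif11 read 679 with PDGF-DD, against 376 with its vehicle, and 37.7 with IL-1b, against 67.7 with its vehicle. Kif2c read 364 with PDGF-DD, against 230.4 with its vehicle, and 35.0 with IL-1b, against 41.7 with its vehicle. Kif11 and Kif2c were thus 1.81-fold and 1.58-fold higher with PDGF-DD, and lower with IL-1b by 1.79-fold and 1.19-fold. For PDGF-DD, the other probe set of Kif11 gave a log2 ratio of 1.18, past 2-fold, and that of Kif2c gave 0.81.

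Genes of the spindle midzone and of cytokinesis, the final cut between daughter cells, held the one member that departed from the rest. Kif23, a kinesin that with Racgap1 forms the centralspindlin complex, read 1380.3 with PDGF-DD, against 736 with its vehicle, and 181 with IL-1b, against 783 with its vehicle. Its IL-1b vehicle value lay beside its PDGF-DD vehicle value, with a log2 ratio of -0.09 between the vehicles, where the other 33 members had ratios of 1.47 or more. With IL-1b it was 4.34-fold lower, and with PDGF-DD 1.88-fold higher. The second probe set of Kif23 read 232 with PDGF-DD, against 107 with its vehicle, and 32.1 with IL-1b, against 85.7 with its vehicle. It gave a log2 ratio of 0.32 between the vehicles and of -1.42 for IL-1b, so the departure was seen on both probe sets. The promoter of Kif23, printed above, holds the CHR and CCAAT motifs as do those of other members.

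Its partner Racgap1 did not share that pattern. Racgap1 read 1486 with PDGF-DD, against 728 with its vehicle, and 65.2 with IL-1b, against 105 with its vehicle, 6.93-fold apart between the vehicles. Ect2, which centralspindlin recruits for cytokinesis, read 1545 with PDGF-DD, against 853 with its vehicle, and 58.4 with IL-1b, against 82.8 with its vehicle. Prc1, which cross-links midzone microtubules, read 1848 with PDGF-DD, against 1001 with its vehicle, and 123 with IL-1b, against 159 with its vehicle. The kinesin Kif20a, which brings the passenger complex to the midzone, read 1254 with PDGF-DD, against 643 with its vehicle, and 40.1 with IL-1b, against 62.3 with its vehicle. Its 10.3-fold ratio between the vehicles was among the largest of the list. The PDGF-DD ratios of these 5 genes lay close together, from 0.86 to 1.03 on the log2 scale, and all 5 were below 0 with IL-1b.

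Chromosome proteins were represented by Mki67, the antigen Ki-67 that coats mitotic chromosomes and is the usual stain for dividing cells, and by Top2a, the topoisomerase that untangles sister chromatids. Mki67 read 1799 with PDGF-DD, against 858 with its vehicle, and 64.8 with IL-1b, against 83.6 with its vehicle. It was 2.1-fold higher with PDGF-DD and 21.5-fold higher with PDGF-DD than with the IL-1b vehicle. Top2a read 1561 with PDGF-DD, against 976 with its vehicle, and 99.3 with IL-1b, against 104 with its vehicle. Its 2 probe sets gave log2 ratios of 0.68 and 0.85 for PDGF-DD and of 3.23 and 3.45 between the vehicles.

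Further probe sets of a gene gave a second reading of it on the same arrays. The 11 members with more than 1 probe set had 15 further ones. For PDGF-DD over its vehicle, 14 could be measured, 14 of these had the sign of the brightest probe set, and the median absolute difference from it was 0.21 on the log2 scale. Between the vehicles 11 of 12 had the same sign, the exception being the second probe set of Kif23, and the median absolute difference was 0.46. For IL-1b it was 7 of 9, with a median absolute difference of 0.36, which exceeds the size of the members' median ratio of -0.31. The largest absolute differences were 0.63 for PDGF-DD, 1.70 between the vehicles and 0.87 for IL-1b. These differences do not measure the spread between cultures.

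**Figure D4:**
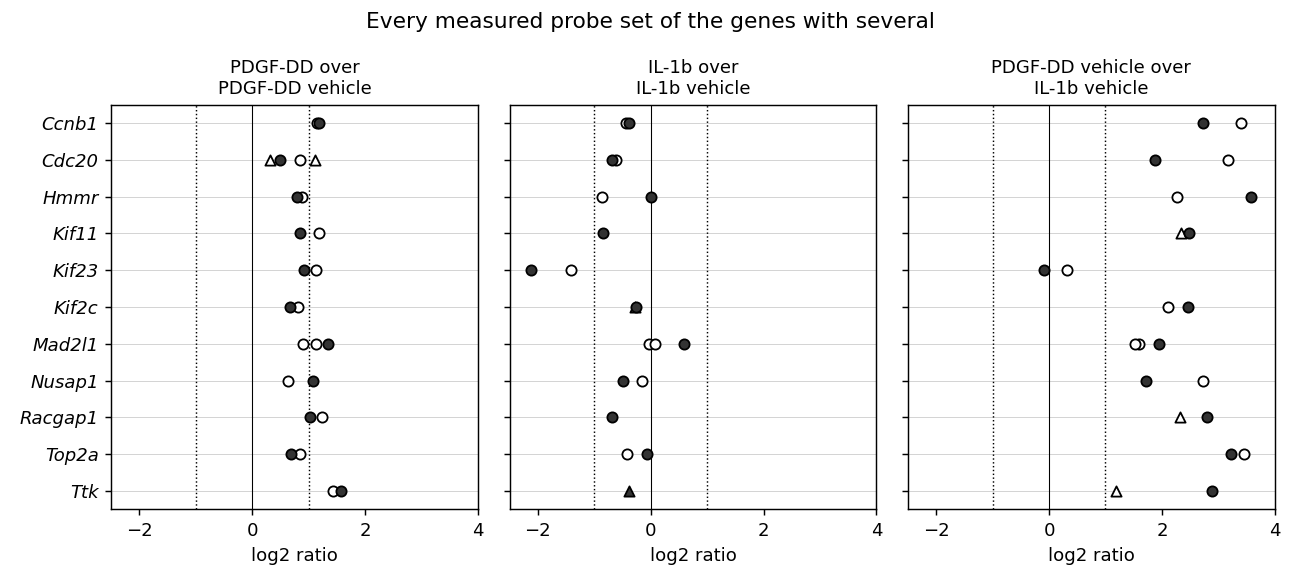
Log2 ratios (x axis) of every measured probe set of the 11 members that have more than 1, with filled symbols for the probe set that stands for the gene, open symbols for the others, and triangles where 1 array was at the floor; dotted lines mark 2-fold. All points of the left panel lie above 0, and both points of Kif23 in the right panel lie near 0, at -0.09 and 0.32.

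Further mitotic genes were read from a separate list of 98 symbols, none of them a member, of which 81 had a probe set. With PDGF-DD, 29 of 80 measured genes exceeded the vehicle by 2-fold or more and 0 fell short of it by as much (4.24% and 4.67% of all genes), with a median log2 ratio of 0.89. Between the vehicles, the PDGF-DD vehicle gave values 2-fold or more higher in 53 of 81 and lower in 0 (5.79% and 4.67% of all genes), with a median of 1.47. With IL-1b, 3 of 76 were higher by 2-fold or more and 0 lower, with a median of -0.05, and these shares do not exceed the 6.15% and 5.42% of all genes. This list is wider than the members' list and holds genes that are also used outside mitosis. The transcription factor Foxm1, which drives late cell cycle genes, read 249.7 with PDGF-DD, against 131 with its vehicle, and 44.3 with IL-1b, against 40.6 with its vehicle. Mybl2, a transcription factor that acts with it, read 155 with PDGF-DD, against 54.9 with its vehicle, and 41.7 with IL-1b, against 43.4 with its vehicle. Mybl2 was 2.82-fold higher with PDGF-DD and 1.26-fold higher with the PDGF-DD vehicle than with the IL-1b vehicle, whereas Foxm1 differed 1.91-fold and 3.22-fold. Pttg1, securin, inhibits the enzyme that separates sister chromatids. It read 894 with PDGF-DD, against 441 with its vehicle, and 103 with IL-1b, against 83.1 with its vehicle. Cenpa, the histone that marks centromeres, was barely above the floor with PDGF-DD (35.3) and its vehicle (40.2), and under it on both IL-1b arrays.

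The largest PDGF-DD ratios of the wider list were those of Kif18a, a kinesin that dampens chromosome movement, Cdca7, and Trip13, which takes apart checkpoint complexes. Kif18a read 339.8 with PDGF-DD, against 65.9 with its vehicle, and 37.2 with IL-1b, against 18.4 with its vehicle, a 5.15-fold difference with PDGF-DD that exceeded those of all 34 members. Cdca7 and Trip13 were 3.29-fold and 2.94-fold higher. The smallest were those of Cenpj (-0.24), Cenpa (-0.19) and Anapc10 (-0.14), on the log2 scale. Between the vehicles the largest were those of the spindle genes Aspm (at least 10.8-fold), Tacc3 (9.55-fold) and Kif20b (9.15-fold), and the smallest log2 ratios were those of the phosphatase Cdc25a (-0.55), Anapc10 (-0.16) and Cdca5 (-0.11, its PDGF-DD vehicle value under the floor). With IL-1b, the 3 genes past 2-fold, no larger a share than over all genes, were Gtse1, at 222 with IL-1b, against 85.6 with its vehicle, Ncapg2, at 70.8 with IL-1b, against 31.1 with its vehicle, and Cit, at 68.0 with IL-1b, against 32.3 with its vehicle.

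S phase genes, mostly genes that copy the DNA before mitosis, were set beside the members as the neighbouring phase of the cycle. Their list also held genes of other roles, among them Ccne1, Ccne2 and E2f1. With PDGF-DD, members had a median log2 ratio of 0.99 and 39 S phase genes one of 1.05. At least 2-fold higher were 17 of 34 and 25 of 39, beside 4.24% of all genes. Between the vehicles the members' median was 2.46 and that of S phase genes 1.12. There, 33 of 34 and 21 of 39 were at least 2-fold higher, beside 5.79% of all genes. The quartiles of the members were 2.18 and 2.86 there, and those of S phase genes 0.64 and 1.62. With IL-1b the medians were -0.31 for members and -0.06 for S phase genes. With 1 array per group, a difference between the lists cannot be tested. The 10 reference genes used for array scaling checks had medians of -0.19 with PDGF-DD, 0.10 with IL-1b and 0.10 between the vehicles.

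**Figure D5:**
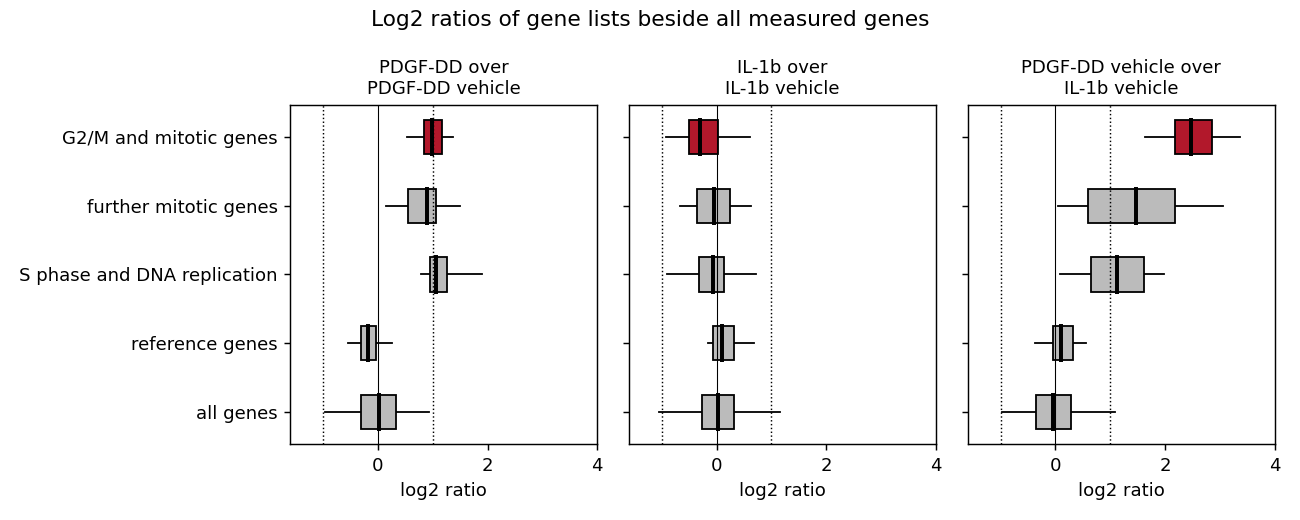
Log2 ratios (x axis) of the members, the further mitotic genes, the S phase genes, the reference genes and all genes measured, for the 3 comparisons. Boxes run from the lower to the upper quartile, thick lines are medians, thin lines run between the percentiles 5 and 95, and dotted lines mark 2-fold; the members' median is 0.99 in the left panel, -0.31 in the middle and 2.46 in the right.

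Members with and without a CHR motif had close medians. Among members with a probe set and a promoter, 20 with a CHR motif had a median log2 ratio of 0.90 with PDGF-DD and 9 without had 1.01, and between the vehicles the medians were 2.44 and 2.46. The measured members lie on 12 chromosomes, with at most 6 on any 1 of them. Markers of the labelled cell type were present, since each of the 8 smooth muscle markers exceeded the floor somewhere, Des only with the IL-1b vehicle. Their summed intensities were 4701 with PDGF-DD, against 20186 with its vehicle, and 8614 with IL-1b, against 28035 with its vehicle. The sum was thus lower where the members were higher in the PDGF-DD pair and between the vehicles, and was lower with IL-1b too. Of 12 leukocyte markers, 4 were above the floor on any array, and their list summed to 1266 with PDGF-DD, against 1346 with its vehicle, and 2810 with IL-1b, against 1276 with its vehicle. Cd14 made up most of the sum on the arrays other than the IL-1b array, and the higher sum with IL-1b was Lyz2, at 1305 with IL-1b, against 28.0, just under the floor, with its vehicle. Ptprc, Itgam and Cd68, defining genes of leukocytes and macrophages, were under the floor on all 4 arrays. Of the endothelial markers 3, of the adventitial fibroblast markers 4 and of the Schwann cell markers 0 were above it on any array. Adventitial fibroblast markers summed to 534 with PDGF-DD, against 1178 with its vehicle, and 7518 with IL-1b, against 2218 with its vehicle, most of it Lum on each array. Endothelial markers summed to 183 with PDGF-DD, against 273 with its vehicle, and 175 with IL-1b, against 343 with its vehicle, most of it Esam. The part of other cell types in the mitotic gene values was not tested.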

How the data were processed

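The data are 4 single arrays, grouped by their titles. The authors deposited 1 linear intensity per probe set, for which the submitters' processing notes name MAS5. Neither its version nor its target value is given in the sources used here. Every deposited column had a median of 53.3. The arrays were rescaled to 1 mean after trimming 2% at each end (factors 0.951 for PDGF-DD, 1.01 for its vehicle, 1.01 for IL-1b and 1.03 for its vehicle), floored and log2 transformed. Names came from a platform annotation of 2016: 20832 probe sets had 1 symbol, 436 several, and 9831 were not listed. 20764 of the first matched a GRCr8 RefSeq gene, and no symbol changed. Detection calls were not used here. A gene was measured in a comparison if above the floor on at least 1 of its arrays, and a ratio against a floored value is a lower bound. The number of arrays limits the precision. The members and lists were chosen with earlier results of these data known. All members could be named. From the wider list the rule took Foxm1, Mybl2, Cenpa and Pttg1, the 3 highest and 3 lowest ratios for PDGF-DD and between the vehicles, and genes past 2-fold with IL-1b. Alternatives varied the scaling, the floor, the probe set and the fold. The scaling and ratio steps were tested on simulated data, copies of the PDGF-DD vehicle array in which bright genes were given known folds. These copies held no noise between arrays and no changed genes near the floor, so calls among dim genes were not checked. Python 3.11.15, numpy 2.4.6 and pandas 2.3.3 were used.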

Additional observations from a re-analysis of the deposited data

How the results depend on the processing

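No paired analysis was possible because each group has 1 array and no result comes from a test. Of 10 alternative settings, the 1.5-fold and 3-fold thresholds bear on counts alone. Under the others no median over the members changed sign or moved by more than 1.5-fold. The members' median stayed between 0.96 and 1.07 for PDGF-DD over its vehicle, between 2.16 and 2.51 between the vehicles, and between -0.63 and -0.18 for IL-1b over its vehicle. The count of members called for PDGF-DD, 17 at 2-fold, was 31 at 1.5-fold and 0 at 3-fold. For IL-1b, the count of higher members, 0, was 3 at 1.5-fold and 1 with no floor. The count of lower members, 2, was 8 at 1.5-fold, 1 at 3-fold and 6 when arrays were scaled to the reference genes. Shares over all genes were counted at 2-fold in the main setting only. Whether the counts under alternatives exceed the background therefore cannot be read here. Scaling to the reference genes moved the median of all genes by -0.36 for IL-1b and by -0.29 between the vehicles. It matches the median level of those genes on each array. The median of their log2 ratios was 0.10 in both comparisons, smaller in size than these shifts. Rescaling is otherwise small: with values as deposited the largest shift was 0.11, for PDGF-DD over the IL-1b vehicle. Of 1340 member ratios under alternatives, 1302 kept within 1.5-fold of their value and none past 2-fold changed sign; those that moved belong to genes with several probe sets or near the floor, as with Cenpe, whose ratio between the vehicles ran from 1.48 to 5.72 with the floor. The cause of the other changes was not tested.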

Other observations

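The probe set that carries the symbols of both Ckap2, a spindle protein, and a Ckap2 pseudogene was left out of the list because its signal cannot be given to 1 gene. It read 1560.5 with PDGF-DD, against 673 with its vehicle, and 143 with IL-1b, against 119 with its vehicle. Its log2 ratios were 1.21 for PDGF-DD, 0.27 for IL-1b and 2.50 for the PDGF-DD vehicle over the IL-1b vehicle.

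A list of 18 genes held G1 cyclins, their kinases and CDK inhibitors, with Rb1, Rbl1, Rbl2, Ccng1 and Ccng2 added. It pools genes that favour entry into the cycle with genes that hold it back, so its medians describe neither kind. The cyclins Ccne1 and Ccne2 were counted with the S phase genes and not here. They were 2.57-fold and 3.26-fold higher with the PDGF-DD vehicle than with the IL-1b vehicle. Against the matching vehicle, they were 2.04-fold and 3.70-fold higher with PDGF-DD, and 2.22-fold and 1.05-fold higher with IL-1b. On a vehicle array, 17 of the 18 were above the floor. Of these, 2 (Ccnd1 and Rbl1) were at least 2-fold higher with the PDGF-DD vehicle than with the IL-1b vehicle. None (0) was lower by as much (5.79% and 4.67% of all genes), and the median log2 ratio was -0.01. With PDGF-DD, 2 of 16, Ccnd1 and Cdkn2b, were at least 2-fold higher than with its vehicle and 0 lower (median 0.26, with 4.24% and 4.67% of all genes). With IL-1b, 5 of 16 were higher (Ccnd1, Cdkn1a, Cdkn2a, Cdkn2b and Ccng1) and 2 lower (Cdkn1b and Rb1). The median was -0.19, and the shares of all genes were 6.15% and 5.42%.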
